A study of Homo sapiens with 4 samples.

Results

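The genes described here encode the core proteins of the box C/D small nucleolar ribonucleoprotein (snoRNP) and the factors that assemble it. They are FBL, NOP56, NOP58, NHP2L1, RUVBL1, RUVBL2, NOLC1, ZNHIT6, NUFIP1 and RPAP3, and were chosen by name. The measurement is exon skipping: every event of the authors' deposited table joins an exon that can be included or skipped to its neighbours. Of 88 events in these 10 genes, 78 averaged at least 20 junction reads (reads across a splice junction) over the 4 libraries, and they covered 53 distinct exons of all 10 genes. The whole table held 65601 events, of which 54503 in 9982 gene symbols reached that depth. The 10 events left out averaged 1.25 to 15.75 reads, and the shallowest kept, in NOP56, averaged 26.5.

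The cells were 293T, a human embryonic kidney line that takes up transfected nucleic acid readily. One group, of 2 libraries, received an MOE gapmer antisense oligonucleotide (ASO) against SNORD89, a gapmer being a chemically modified strand that directs RNase H to cut the RNA it pairs with. The other group, also of 2 libraries, is labelled as having no ASO and no treatment. The labels of both carry one protocol: 70 nM ASO with Lipofectamine RNAiMAX, new medium after 24 hours, and RNA taken with TRIzol after 48 hours, so it is not clear whether cells without ASO met the lipid, and the labels mention no ASO of another sequence. Poly(A) RNA was read as pairs of 150 bases. The table numbers its groups, here the first and the second set, and neither its header nor the labels state which is which, so directions below are between sets.

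Box C/D snoRNAs guide methylation of the ribose of ribosomal RNA, and SNORD89 belongs to this class. In the particle, NHP2L1 binds the kink formed by boxes C and D, NOP56 and NOP58 pair as the scaffold, and FBL is the methyltransferase. The particle does not form on its own: ZNHIT6 and NUFIP1 hold early intermediates, the ATPases RUVBL1 and RUVBL2 together with RPAP3 and PIH1D1 make up the R2TP chaperone of HSP90, and NOLC1 escorts the particle in Cajal bodies and nucleoli. Most snoRNAs of this class are cut out of introns of host genes, some of which encode these very proteins. SNORD89 gives no skipping reads of its own, so its depletion was not analysed here.

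The 4 libraries held between 38613055 and 43929373 junction reads, summed over events, and the 10 genes took 0.317 to 0.362% of them. Library 2 of the second set stood apart: it had no reads on 3280 events, against 513 to 624 in the other libraries, although none of the 78 events lacked reads in it. Where most skipping reads of an event given per library fall in it, or a difference with p under 0.05 in the authors' deposited table depends on it, the value without it or its own level follows. Smaller differences can also change sign without it, and these are not all listed. Library numbers are positions in the table and pair nothing between sets. The 78 events were deep, with a median of 1321.25 reads per library against 190 for all tested events.

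No exon of the box C/D genes was called as spliced differently between the sets. An event was called at a false discovery rate (FDR) under 0.05 with a difference in inclusion level, the fraction of transcripts that keep the exon, of at least 0.1. By this rule the authors' deposited table calls 0 of the 78 events, against 2.71% of all tested events (1.34% with the first set higher and 1.37% with the second higher, 0 of the 78 in each). Calls depend on the level: 1474 of the 1477 called events had a mean level between 0.05 and 0.95, where 11.0% of 13401 events were called, and of the 78 only 5 lie there, 0 of them called. The quasi-binomial model, which takes the scatter between libraries as its error, called 0 of the 78 at an adjusted p under 0.05, against 0.00183% of all, which is 1 event. At an unadjusted p under 0.05 the authors' deposited table has 5 of the 78 (background 14.3%), 1 each in NOLC1, NOP56, RPAP3, RUVBL1 and RUVBL2, and the quasi-binomial model has 2 (background 3.62%), in NOLC1 and NOP58. An FDR under 0.05 at any difference is given in the authors' deposited table to 1 of the 78, in NOLC1, against 5.72% of all.

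Inclusion was near complete in these genes. The mean level lay above 0.95 in 65 of 78 events (83.3%, background 66.1%), between 0.05 and 0.95 in 5 (background 24.6%) and under 0.05 in 8 (background 9.3%). The median absolute difference between sets was 0.00207, against 0.0114 for all tested events, and 73 of the 78 events differed by less than 0.02. Over the members with enough reads of both forms to compare (17 and 20 events), libraries of 1 set differed by 4.11 and 4.89 times the median chi-square of binomial sampling in the first and the second set, against 2.58 and 6.38 times for all tested events. In level, libraries of 1 set differed by about as much as the sets did, with a median of 0.00221 in the first set, against 0.00188 in the second. The levels of the sets did not overlap in 15 events (19.2%, background 22.8%), 6 with the first set higher (background 9.29%) and 9 with the second higher (background 13.5%). A difference of at least 0.1 was seen in 2 events (background 7.13%), 1 in NOP56 and 1 in RUVBL2. With 2 libraries against 2, an exact two-sided permutation test cannot go below p = 0.333, so none was run per event.

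**Figure D1:**
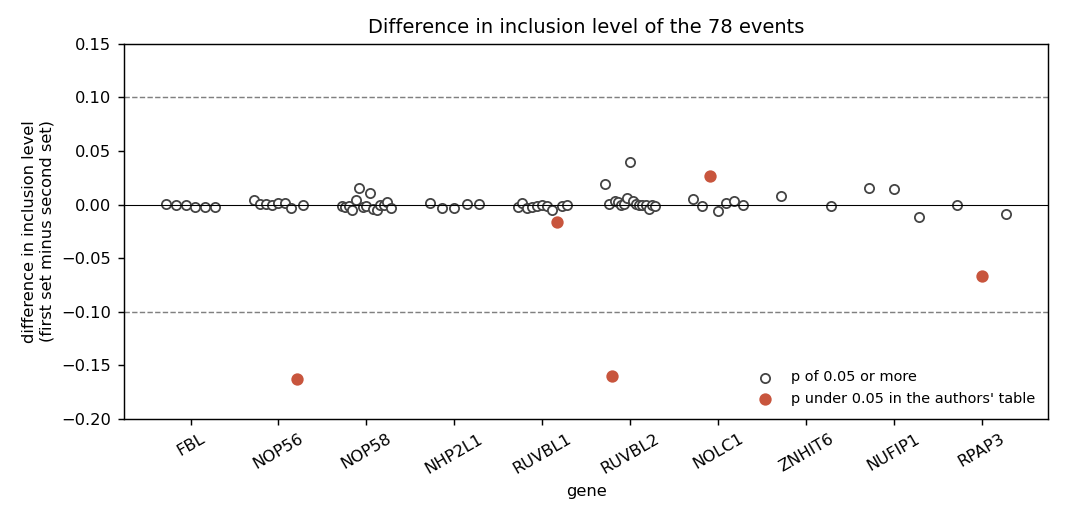
Difference in mean inclusion level (first set minus second set, as a fraction) of each of the 78 events, grouped by gene, with events at p under 0.05 in the authors' deposited table filled and dashed lines at a difference of 0.1 in either direction. The 2 events beyond the lines are in NOP56 and RUVBL2, and 73 of 78 lie within 0.02 of 0.

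FBL, the methyltransferase, kept its exons almost without exception. The 6 tested events had mean levels from 0.995 to 1. Exon 4 of 9 (chr19:40330873-40330967, minus strand, 95 nt, coding) had 0 and 0 skipping reads of 9719 and 10428 in the first set, against 1 and 0 of 15952 and 15837 in the second. Another event of this exon, flanked by the exon that begins at 40336931, had 5 and 0 skipping reads of 4690 and 5078 in the first set. In the second set it had 0 and 0 of 7018 and 6766. Exon 2 is listed with 3 lengths (171, 168 and 132 nt), whose events share 4 and 2 skipping reads in the first set, against 4 and 3 in the second, and their levels ran from 0.991 to 0.997. These events also share the junction at the 5′ end of the exon, so the levels do not tell the lengths apart. No difference between sets exceeded 0.00254 in this gene.

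NOP56, one protein of the scaffold and itself a snoRNA host gene, had 9 tested events in 6 exons. GENCODE release 29 places 5 snoRNAs in its introns (SNORD56, SNORD57, SNORD86, SNORD110 and SNORA51). SNORD86 sits in the intron after exon 8, and that exon has a short end and a long end in the table. The extension between them (chr20:2636681-2636860, plus strand, 180 nt) holds all 86 nt of SNORD86, which starts 62 nt after the short end and stops 32 nt before the long one. It is shown because the snoRNA in this intron is known, as background, to take part in the choice between these ends according to the supply of box C/D proteins. SNORD86 is in capitals, 5′ to 3′, from GENCODE transcripts placed on hg19.
NOP56 exon 8 extension: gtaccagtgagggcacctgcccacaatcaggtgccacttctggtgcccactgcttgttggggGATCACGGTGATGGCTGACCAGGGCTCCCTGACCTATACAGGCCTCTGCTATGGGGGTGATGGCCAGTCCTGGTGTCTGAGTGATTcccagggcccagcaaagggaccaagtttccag

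Both ends were used. Exon 9 (chr20:2637047-2637195, 149 nt) has an event from each end, and both count the junction of exon 9 with exon 10. The event from the long end had 3977 and 4246 inclusion reads in the first set, against 4938 and 5137 in the second, and the event from the short end had 3317 and 3433, then 3997 and 4498. The event from the long end had more reads in all 4 libraries, by 660 and 813 in the first set, against 941 and 639 in the second, and the sets overlap. The same order held at exon 8 itself, where the long form exceeded the short form by 813 and 960 reads in the first set, against 1127 and 829 in the second. These gaps equal the gap between the ends only if reads on the shared junction are counted alike in both events. Exons 8 and 9 would then give the same gap in each library, which they do not. The size of the gap between the ends was thus not measured, and these comparisons were chosen after their values were seen.

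Skipping of exon 9 was seen mostly from the long end. Transcripts with the long end had 44 and 36 skipping reads in the first set, against 47 and 59 in the second, and those with the short end had 2, 2, 2 and 0. From the long end the inclusion level was 0.978 and 0.983 in the first set, against 0.981 and 0.978 in the second. The sets overlap, and the authors' deposited table lists a difference of 0.001 and p = 0.668.

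**Figure D2:**
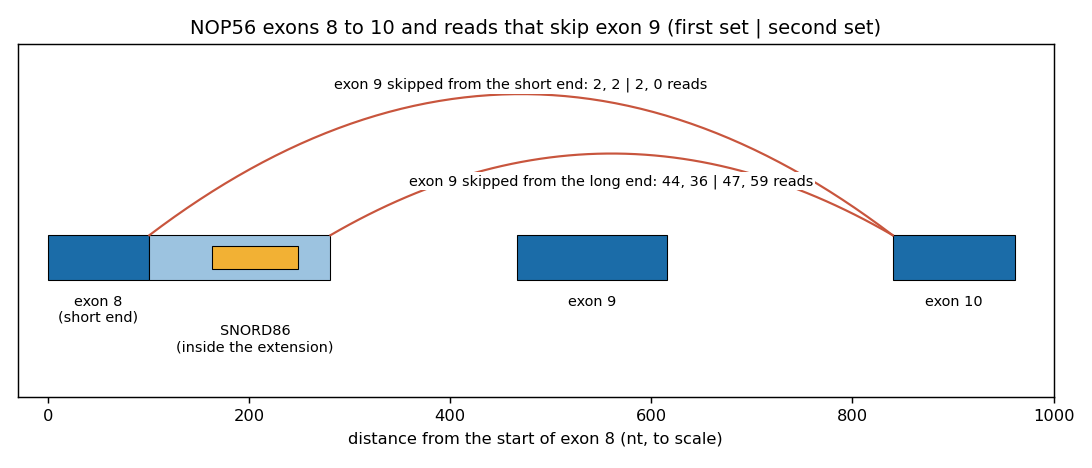
Map of NOP56 exons 8 to 10 to scale in nt from the start of exon 8, with the extension to the long end in pale blue, SNORD86 inside it in orange, and arcs for reads that skip exon 9, counted as first set before the bar and second set after it. Skipping reads number 36 to 59 per library from the long end and 0 to 2 from the short end.

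NOP56 has a further exon of 116 nt (chr20:2638019-2638134) near its 3′ end that GENCODE assigns to a transcript marked for nonsense-mediated decay, the pathway that removes messages with an early stop. In the annotated frame its stop codon begins at base 16, in capitals below, and lies 98 nt before the last exon junction.
NOP56 exon to its stop: gaaggagataggtgcTGA

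Spliced after the exon that ends at 2637864, the 116-nt exon was included at 0.0636 and 0.0388 in the first set, against 0.0419 and 0.0609 in the second, from 1215 to 1770 reads. The sets overlap, and p is 0.923 in the authors' deposited table. Another event places the same exon after the exon that ends at 2637541. It had 41 and 18 reads in the first set, against 33 and 14 in the second. The junction into the exon on this path is also the skipping junction of another event. There it had 0 and 0 reads in the first set, against 0 and 3 in the second. Most inclusion reads therefore appear to fall on the junction after the exon, which the event above shares. The level thus does not measure inclusion on this path. It was 0.667 (95% CI 0.492 to 0.805) and 0.905 (0.618 to 0.983) in the first set, against 0.897 (0.697 to 0.971) and 1 (0.672 to 1) in the second. This is the largest absolute difference of the 78 events, -0.163, yet the sets overlap and the intervals of all 4 libraries meet. The authors' deposited table gives p = 0.00788 and an FDR of 0.0938, and the quasi-binomial model gives p = 0.235 (adjusted p = 0.837). Without library 1 of the first set the difference is -0.0432, and without library 2 of that set -0.282. A non-coding exon of 133 nt at chr20:2634822-2634954 was included at 0.00663 and 0.00658 in the first set, against 0.00366 and 0.00178 in the second. These do not overlap, and the authors' deposited table gives p = 1.

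NOP58, the partner of NOP56, had 15 tested events in 10 exons and 4 snoRNAs in its introns (SNORD11, SNORD11B, SNORD70 and 1 named RF00575 in GENCODE). Its one exon of intermediate use (chr2:203142935-203143052, plus strand, 118 nt) is, as in NOP56, part of a transcript marked for decay. Its stop codon begins at base 30 and lies 208 nt before the last junction, and RF00575 lies in the intron before it.
NOP58 exon to its stop: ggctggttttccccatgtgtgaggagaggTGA

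The 118-nt exon was included at 0.105 (95% CI 0.0911 to 0.121) and 0.0936 (0.0791 to 0.11) in the first set, against 0.0876 (0.0718 to 0.106) and 0.0812 (0.0684 to 0.0961) in the second, with 661 to 1058 reads per library. Both libraries of the first set lie above both of the second, but the intervals of all 4 meet. The authors' deposited table lists a difference of 0.015, p = 0.174 and an FDR of 0.761, and the quasi-binomial model gives p = 0.316. The exon of NOP58 with most reads (chr2:203164957-203165090, exon 13 of 15) had levels of 0.992 and 0.99 in the first set, against 0.998 and 0.99 in the second. An exon at chr2:203149068-203149204, named after its value was seen, had 10 skipping reads of 872 in library 2 of the second set and 0 in the other 3 libraries, and the quasi-binomial model gives it p = 0.0287. Without that library no skipping read of the event remains.

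Exons next to the snoRNA-bearing introns of both hosts were examined together. There were 10 such events in 8 exons, with 882 to 4621 reads on average. Their differences ran from -0.00289 to 0.015, the smallest p in the authors' deposited table was 0.174, and the smallest in the quasi-binomial model was 0.107. None was called by either test (background 2.71% for the authors' test and 0.00183% for the model), and the levels of the sets did not overlap in 3 of the 10 (background 22.8%). They border the introns of 7 of the 9 snoRNAs, and no tested event was matched to those of SNORD110 and SNORA51. The other 8 genes hold no annotated snoRNA.

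NHP2L1, named SNU13 in GENCODE, binds box C/D RNAs and also the U4 RNA of the spliceosome. It had 5 tested events, of which 4 concern exons under 0.05. The exon of 232 nt at chr22:42078360-42078591 (minus strand), coding in 1 annotated form, was included at 0.0367 and 0.0477 in the first set, against 0.0429 and 0.0473 in the second, with 1696 to 2477 skipping reads. The sets overlap, and p is 0.566 in the authors' deposited table. Longer and shorter forms of an untranslated exon, chr22:42083726-42084331 and chr22:42084083-42084331, stayed at or under 0.00126 in every library. Coding exon 2 (chr22:42076248-42076368) had levels of 0.996 and 0.99 in the first set, against 0.993 and 0.991 in the second.

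Among the assembly factors, RPAP3, the subunit that tethers HSP90 to the ATPases, had the one exon with at least 100 reads and a level between 0.05 and 0.95. Exon 12 of 17 (chr12:48073276-48073377, minus strand, 102 nt) keeps the reading frame and supplies codons 396 to 429 of 665, and without it 631 remain. As background, the shorter isoform without these residues is known not to bind PIH1D1, the other adaptor of R2TP. The exon sequence is printed for that reason.
RPAP3 exon 12: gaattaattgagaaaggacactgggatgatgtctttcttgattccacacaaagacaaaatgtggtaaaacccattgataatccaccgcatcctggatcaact

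Inclusion of RPAP3 exon 12 was 0.818 (95% CI 0.77 to 0.858) and 0.826 (0.775 to 0.868) in the first set. In the second set it was 0.855 (0.8 to 0.898) and 0.924 (0.875 to 0.954). The skipping reads were 50 of 429 and 41 of 370 in the first set, against 27 of 296 and 13 of 278 in the second. The sets do not overlap, but library 1 of the second set lies nearer to the first set than to its own partner. The authors' deposited table lists a difference of -0.068, p = 0.0109 and an FDR of 0.116, and the quasi-binomial model gives p = 0.152 (adjusted p = 0.837), so the exon was not called. Without library 2 of the second set, the one that stood apart, the difference is -0.033, and without library 1 of that set -0.101. Of the other tested exons of RPAP3, exon 2 of 17 (chr12:48096471-48096629) was at 0.996 and 0.98 in the first set, against 0.992 and 1 in the second, and a cassette at chr12:48058373-48058626 was at 0.0142, 0, 0.0128 and 0.00232.

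**Figure D3:**
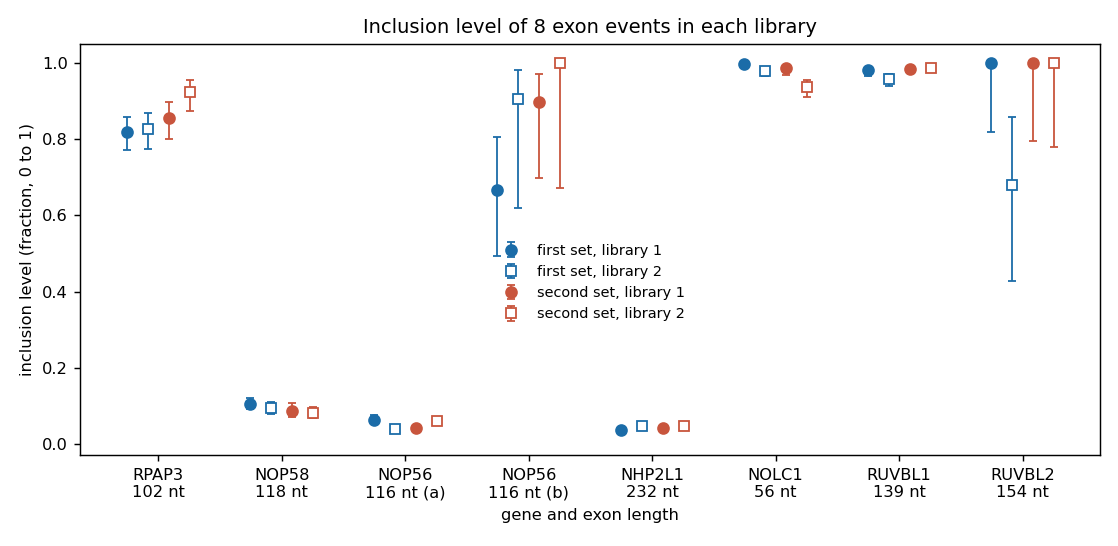
Inclusion level (fraction) of 8 events in each of the 4 libraries, with 95% Wilson intervals that cover counting error only. For the 116-nt exon of NOP56, (a) is the event after the exon ending at 2637864 and (b) the one after the exon ending at 2637541. RPAP3 lies at 0.818 and 0.826 in the first set, against 0.855 and 0.924 in the second, and the widest intervals belong to the shallow events of NOP56 (b) and RUVBL2.

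NOLC1 had the one event with an FDR under 0.05. Exon 2 (chr10:103916776-103916831, plus strand, 56 nt) is coding and shifts the frame when skipped alone.
NOLC1 exon 2: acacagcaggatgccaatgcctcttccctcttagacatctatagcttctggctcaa

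The event joins exon 2 to a downstream exon that begins at 103917806, and this included form was not matched in GENCODE release 29. The skipping junction is annotated in 1 protein-coding transcript. It passes over exon 2 and also over the next exons that begin at 103916943 and 103916946. The level of the event was 0.999 and 0.979 in the first set, against 0.987 and 0.937 in the second. Its skipping reads were 1 and 13 of 1050 and 859, then 5 and 26 of 519 and 560. Its inclusion reads count the junction before exon 2, which transcripts with the usual next exons share. The level therefore does not show how often the unmatched form was used. The sets overlap, and in each set library 2 has the lower level. The authors' deposited table lists a difference of 0.027, p = 2.4e-05 and an FDR of 0.00199, and the quasi-binomial model gives p = 0.0208 (adjusted p = 0.837). Without library 2 of the second set the difference is 0.0022, and without library 1 of that set 0.0518. Exon 2 joined to the usual next exons, which begin at 103916943 and 103916946, was skipped in 0 to 5 reads per library of 868 to 2127. The deepest exon of NOLC1 (chr10:103919990-103920100, exon 9 of 13) was skipped in 5 reads of 1300 in library 1 of the second set and in 0 elsewhere.

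RUVBL1 and RUVBL2, the paired ATPases, had 11 and 17 tested events. Exon 9 of RUVBL1 is listed with 2 starts on the minus strand, 103 nt (chr3:127806549-127806651) and 139 nt (chr3:127806549-127806687). The longer form adds 36 bases at its 5′ end, in capitals.
RUVBL1 long exon: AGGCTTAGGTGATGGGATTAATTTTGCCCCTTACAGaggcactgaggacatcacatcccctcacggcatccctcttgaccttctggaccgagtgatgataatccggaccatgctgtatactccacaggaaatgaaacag

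The event of the 139-nt form had levels of 0.982 and 0.959 in the first set, against 0.985 and 0.987 in the second. Its skipping reads were 10 and 24, then 11 and 9. The second set is higher without overlap. The authors' deposited table lists a difference of -0.016, p = 0.00724 and an FDR of 0.0885, and the quasi-binomial model gives p = 0.143. The event of the 103-nt form shares these skipping reads, with levels of 0.993 and 0.986, then 0.994 and 0.996. Its p is 0.739 in the authors' deposited table. Both events also share the junction at the 3′ end of the exon, so the levels do not show how often the longer form was used. Without library 2 of the first set, the difference in the event of the 139-nt form is -0.0043.

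For RUVBL2 the exon of 154 nt at chr19:49498037-49498190 (plus strand), in a transcript marked for decay, had a difference of -0.16 from 21 to 35 reads per library. The event follows the exon ending at 49497598, which was itself rarely included, so the level does not describe the whole gene. Its inclusion reads also count the junction after the 154-nt exon, which does not require that rare path. The level there was 1 in both libraries of the second set and in library 1 of the first. It was 0.68 (95% CI 0.429 to 0.858) in library 2 of the first. All 4 skipping reads fall in that library, without which the difference is 0. The authors' deposited table gives p = 0.028 and an FDR of 0.224. The deepest exon of RUVBL2 (chr19:49507534-49507675, exon 4 of 15) was at 0.999 and 0.998 in the first set, against 0.999 and 0.992 in the second, with 28 of its 37 skipping reads in library 2 of the second set. Its difference, 0.0032, is -0.0002 without that library. An exon of 166 nt at chr19:49497433-49497598 stayed at or under 0.0033 in the event after the exon ending at 49497180. After the exon ending at 49497159, with 47 to 73 reads per library, it was at 0 and 0.0388 in the first set. In that event it was at 0 in both libraries of the second set. The junction that skips the 154-nt exon also counts as inclusion of this 166-nt exon. The skipping reads of the former and the inclusion reads of the latter in library 2 of the first set may thus be the same reads.

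ZNHIT6 and NUFIP1, the early assembly factors, had 2 and 3 tested events. The ZNHIT6 exon with most skipping, exon 9 of 10 (chr1:86123530-86123654, minus strand), was at 0.987 and 0.98 in the first set, against 0.972 and 0.979 in the second, with p = 0.393 in the authors' deposited table. Exon 7 of 10 of NUFIP1 (chr13:45533516-45533709, minus strand) was at 0.992 and 1, then 1 and 0.962, with p = 0.527 in the authors' deposited table. The ZNHIT6 levels do not overlap between sets, and those of NUFIP1 do. Library 2 of the second set holds 6 of the 7 skipping reads of the NUFIP1 exon, whose difference of 0.015 is -0.0041 without it.

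Genes that work beside these 10 were counted as well. In 4 lists of partners, namely the wider assembly complex, the H/ACA snoRNP, the U3 processome, and snoRNA capping, transport and trimming, 255 events of 49 genes (51 listed) were tested. None was called in either direction by the authors' test or by the quasi-binomial model. At an unadjusted p under 0.05 there were 17 in the authors' deposited table (background 14.3%) and 7 in the quasi-binomial model (background 3.62%). The authors' deposited table gives an FDR under 0.05 to 7 of them, of differences under 0.1 (background 5.72% at any difference). One is in PIH1D1, the direct partner of RPAP3, at chr19:49951258-49951319, named after its value was seen. Its level was 0.979 and 0.988 in the first set, against 0.959 and 0.932 in the second, with a difference of 0.038 (FDR 0.000781) per the authors' deposited table and an adjusted p of 0.837 in the quasi-binomial model. The others, also named after their values were seen, are in UTP15, PWP2, WDR92, NOL6 (2 events) and SMN1, whose reads may be split with the near-identical SMN2. UTP15 was at 0.995 and 1 in the first set, against 1 and 0.902 in the second. PWP2 was at 0.985 and 0.997, then 0.984 and 0.955. Both were lowest in library 2 of the second set, the one that stood apart.

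The table also shows how many junction reads each gene contributed. The sums count a read once for every event it serves, so they are not compared between genes, and in bulk RNA fewer transcribing cells and less RNA per cell cannot be told apart. FBL had 572 and 611 junction reads per 1000000 in the first set, against 906 and 803 in the second, and NOLC1 had 275 and 226, then 133 and 148. RPAP3 had 30.9 and 25.99, then 19.5 and 18.5, and ZNHIT6 had 23.0 and 19.3, then 14.7 and 13.4. The sets do not overlap in any of these 4 genes, with FBL higher in the second set and the other 3 higher in the first.

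By limma on log2 reads per 1000000 with Benjamini-Hochberg adjustment over 10383 genes, a test added after seeing the data, 4 of the 10 genes were called, 3 higher in the first set (background 37.6%) and 1 in the second (background 3.38%). The log2 difference, first minus second set, was 0.83 (SE 0.13, adjusted p = 2.6e-05) for NOLC1, 0.58 (SE 0.19, adjusted p = 0.0169) for RPAP3, 0.59 (SE 0.20, adjusted p = 0.0253) for ZNHIT6 and -0.53 (SE 0.11, adjusted p = 0.000507) for FBL. RPAP3 and ZNHIT6 lost their calls without library 1 of the first set (limma adjusted p = 0.213 and 0.246) and without library 2 of the second (limma adjusted p = 0.0613 and 0.107). The median of all genes was 0.39 on this scale, so the typical gene was also higher in the first set. Less that median, the log2 difference was -0.92 for FBL, 0.44 for NOLC1, 0.18 for RPAP3 and 0.19 for ZNHIT6. Another scaling, which centres each library on its own median gene, moves every difference by more, 0.58. On that scale limma gave -1.11 for FBL (adjusted p = 7.5e-05), while NOLC1 (0.25, adjusted p = 0.193), RPAP3 (-0.0033, adjusted p = 0.991) and ZNHIT6 (0.01, adjusted p = 0.98) were not called. There 6 of the 10 were called, all higher in the second set (background 29.3%), adding NHP2L1 (-0.85), NOP56 (-0.73), RUVBL1 (-0.70), RUVBL2 (-0.80) and NUFIP1 (-0.62). With the 100 genes with most reads left out of the denominator, limma called NOLC1 higher in the first set (1 of 10, background 30.7%) and FBL, NHP2L1, NOP56 and RUVBL2 higher in the second (4 of 10, background 8.12%). FBL alone of the 10 was called in one direction, higher in the second set, under each of the 3 scalings and without each library in turn.

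The remaining 6 genes were not called on the scale of all junction reads. NOP56 had 493 and 510 junction reads per 1000000 in the first set, against 547 and 569 in the second, NHP2L1 262 and 256, then 317 and 307, and RUVBL1 382 and 424, then 438 and 438. In these 3 the second set is higher without overlap, and limma gave them no call on that scale (adjusted p = 0.264, 0.0619 and 0.407). RUVBL2 had 718 and 688, then 735 and 917, NOP58 439 and 399, then 332 and 392, and NUFIP1 11.8 and 12.7, then 10.0 and 15.8. RUVBL2 is higher in the second set and NOP58 in the first without overlap, and NUFIP1 overlaps. Counting both directions, 4 of the 10 genes did not overlap with the first set higher (background 60.4%) and 5 with the second higher (background 13.5%).

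**Figure D4:**
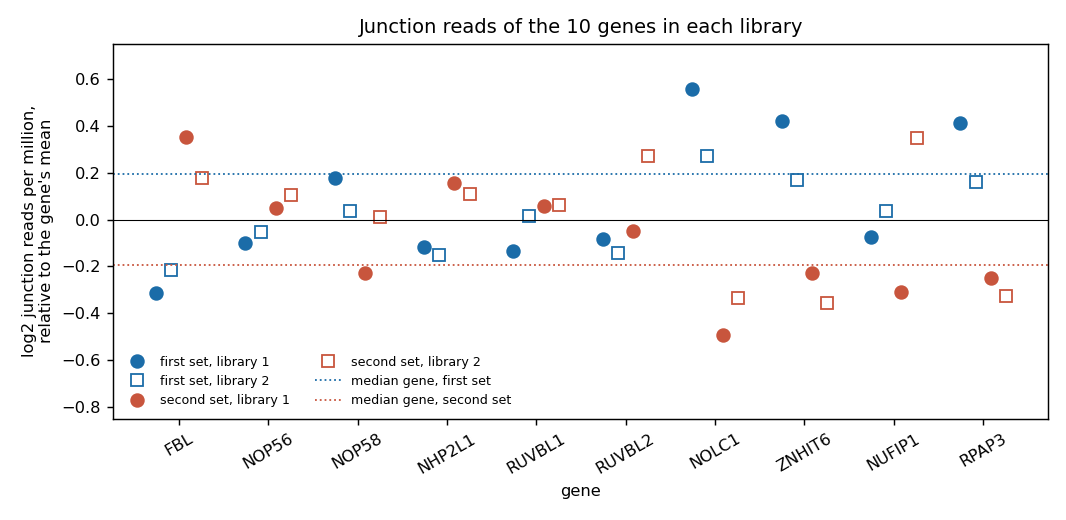
Log2 junction reads per 1000000 of each gene in each library, relative to the gene's mean over the 4 libraries, with dotted lines for where a gene that moves like the median gene (0.39 between sets) would lie in each set. FBL lies above its mean in both libraries of the second set, and NOLC1 shows the widest gap in the other direction, with a log2 difference of 0.83.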

How the data were processed

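The series holds poly(A) RNA-seq of 4 libraries, read here from 1 deposited table in the rMATS layout for skipped exons. Per the submitters' processing notes, cutadapt and STAR were used and the build was hg19. Their versions, the rMATS version and the annotation are not given in the sources used here. Per the file headers, the authors give inclusion and skipping junction read counts of each library, the inclusion level as a fraction from 0 to 1 after correction for form length, the difference as a score from -1 to 1 (first set minus second) and form lengths as a score in bases. The p-value and its Benjamini-Hochberg FDR per event are those of the authors' deposited table. Levels recomputed from the reads matched those in the table to within 0.0005.

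Computed here, in R 4.3.3 with limma 3.58.1 and Python 3.11.15: Wilson 95% confidence intervals (CI), a quasi-binomial model per event over all 54503 events with a mean of at least 20 reads, with its dispersion moderated by squeezeVar and never under 1, and limma with trend on log2 gene junction reads per 1000000 (pseudocount 0.5). Both were tested on simulated data. With the scatter of these libraries, the quasi-binomial model recovered 40 of 200 events changed by 0.3. The 10 deepest of the changed events were all recovered. With binomial noise the model recovered 133 of 200. On gene sums with the scatter of these libraries, limma recovered 130 of 200 changed genes. A missing call by the quasi-binomial model therefore does not show that a shallower event is unchanged. Intervals cover counting error only. Libraries are labelled as biological replicates, but the table carries no replicate numbers. Exons were matched to GENCODE release 29 (GRCh38) by exon spacing within the gene, with no conversion of coordinates, which are hg19 as in the table with 1-based starts. Printed sequences are those of GENCODE release 29 transcripts.

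All 10 genes were named. Values in every library were given for events with p under 0.05 in the authors' table or called by either test, for those of mean level 0.05 to 0.95 with at least 100 reads, and for the deepest and the most skipped event of each gene. The genes, the partner lists and the tests were chosen with earlier results of these data known. Alternatives were other read minimums, difference and FDR thresholds, adjustment over tested events, 1 event per exon, intermediate levels only, no length correction, summed reads, 2 other scalings and leaving out each library.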

Additional observations from a re-analysis of the deposited data

How the results depend on the processing

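The count of called events in the 10 genes stayed at 0 with the authors' test and with the quasi-binomial model under every alternative run, each library left out included. Over all tested events the authors' test called 1477, which became 719 with the read minimum at 50, 2559 with no read minimum, 2499 at a difference of at least 0.05, 525 at 0.2 and 748 at an FDR under 0.01. Leaving out 1 library at a time gave 1002 to 1418. The quasi-binomial model called 1 event in all, and 0 to 2 with a library left out. Of 156 alternative values for the differences of the 26 events given per library, 17 changed sign, in 11 events. Gene junction reads called by limma numbered 4 of 10 (2 to 5 with a library left out, 2 without library 1 of the first set) and 4250 of all (1957 to 4039). RPAP3 and ZNHIT6 lost their calls without library 1 of the first set (adjusted p = 0.213 and 0.246) or library 2 of the second (0.0613 and 0.107), and with the 100 genes with most reads left out of the denominator (0.0529 and 0.07). The log2 difference reversed for NOP58 to -0.36 and for RPAP3 to -0.0033 when each library was centred on its own median gene. For NUFIP1 it ran from -0.37 to 0.29 with a library left out, and reversed to 0.02 without library 1 of the first set and to 0.29 without library 2 of the second. Why was not tested. No paired analysis was possible because the table's columns carry no replicate numbers. Depth limits the events of NOP56 and RUVBL2 with under 50 reads per library, where 4 to 9 reads make the difference.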
